A study of Homo sapiens with 58 samples.

Results

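Small nucleolar RNAs (snoRNAs) and their Cajal body relatives (scaRNAs) were described here as HuR binding sites. The members were peaks of the deposited coverage table that were annotated as snoRNA or carried a gene name beginning with SNORD, SNORA or SCARNA. There were 168 such peaks among 387214 distinct peaks, and they held 48072 of the 7887093 tags in all peaks. HuR was immunoprecipitated with antibody 3A2 after UV crosslinking (CLIP-seq) in 58 libraries of Huh-7.5, a hepatocellular carcinoma cell line. Unmodified (WT) cells, without any APEX reaction, gave nuclear and cytoplasmic fractions after mock treatment or 45 min of sodium arsenite at 0.5 mM, with 3 libraries for each of the 4 groups. Lines carrying the APEX peroxidase as APEX-NLS, APEX-NES or APEX-G3BP1 were labelled with biotin phenol and hydrogen peroxide, with the same mock and arsenite treatments, and gave 17 input libraries and 29 libraries with an added streptavidin capture (enriched). Every sample came from this 1 cell line, and the labels do not say whether replicates were separate cultures, so the p-values measure the spread between these libraries, which may be technical.

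SnoRNAs guide the chemical modification of other RNAs by base pairing. Box C/D snoRNAs (SNORD names) bind fibrillarin, NOP56, NOP58 and SNU13 and direct methylation of ribosomal RNA, whereas box H/ACA snoRNAs (SNORA names) bind dyskerin and direct pseudouridylation. ScaRNAs do the same for spliceosomal RNAs in Cajal bodies. Most human snoRNAs are cut from the introns of other genes, often those of ribosomal proteins and translation factors, while U3 (the SNORD3 copies) and U13 (SNORD13) have genes of their own. U3 does not guide a modification but is needed to cut the precursor of ribosomal RNA. HuR (ELAVL1) is a nuclear protein that shuttles to the cytoplasm and is best known for binding U-rich and AU-rich stretches in 3′ untranslated regions and introns.

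The table named 125 of the 168 peaks after the host gene and 35 after a snoRNA. Peaks were therefore matched by position to RefSeq snoRNA genes of GRCh38.p14, the build of the submitters' processing notes, and 163 matched. This gave 115 SNORD peaks on 107 genes, 37 SNORA peaks on 30 genes, 3 SCARNA peaks on 2 genes (SCARNA9L and SCARNA17) and 13 peaks without a class, 5 of them unmatched. The RefSeq table has no strand, so a gene on the other strand could be matched. Copies of a snoRNA can share tags, because near-identical copies cannot be separated by alignment, so the 4 copies of U3 are not independent observations.

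Each peak was 20 nucleotides long, and in both the SNORD and the SNORA class most peaks lay in the 3′ part of the snoRNA. Among 114 SNORD peaks lying wholly inside their gene, the peak began at a median of 42 nucleotides from the 5′ end of genes with a median length of 83 nucleotides. The centre of 96 of them lay in the 3′ part beyond the midpoint, and 28 of the 114 ended within 10 nucleotides of the 3′ end. Among 32 SNORA peaks, the start was at a median of 106 nucleotides in genes of median length 134 nucleotides. The centre of 27 of the 32 lay beyond the midpoint, and 20 of the 32 ended within 10 nucleotides of the 3′ end. That end carries the ACA box in this class. The 4 named U3 copies (SNORD3A, SNORD3B-1, SNORD3B-2 and SNORD3C), each 217 nucleotides long, held 2 peaks apiece, a 5′ peak starting 27 to 33 nucleotides and a 3′ peak starting 180 to 186 nucleotides from the 5′ end.

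**Figure D1:**
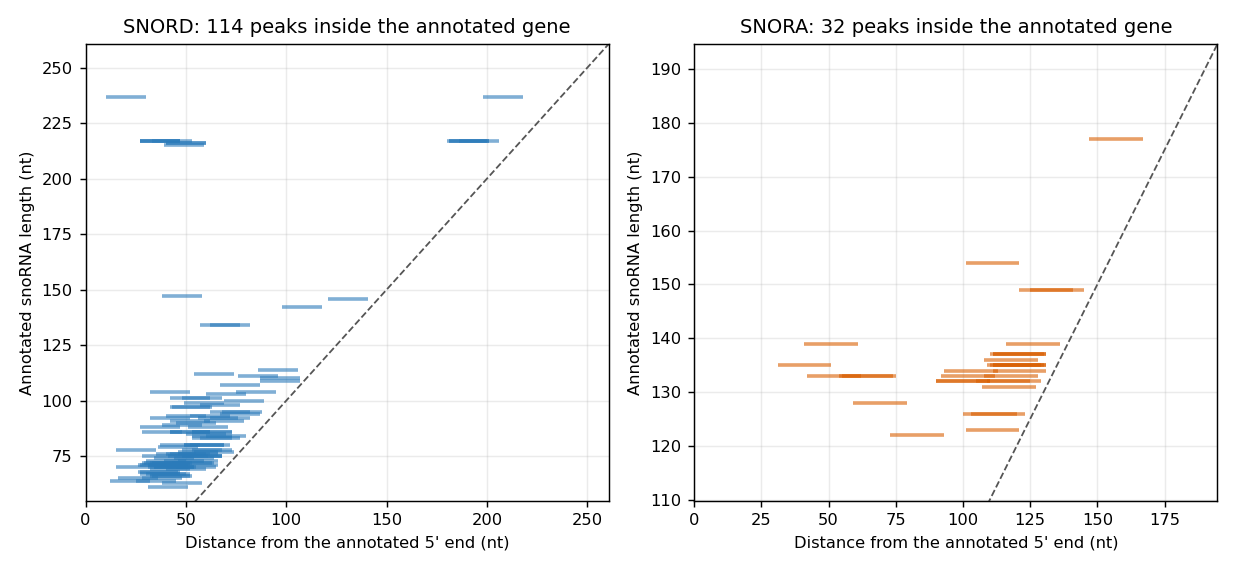
Position of each 20-nucleotide peak (bar) along its snoRNA, with distance from the annotated 5′ end in nucleotides on the horizontal axis and annotated length in nucleotides on the vertical axis, for 114 SNORD peaks (left) and 32 SNORA peaks (right). The dashed line marks the 3′ end; SNORA bars mostly sit near it, and the genes of 217 nucleotides show the 5′ and 3′ bars of U3.

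Reference sequence was at hand for few of these sites. The 3 windows below are shown because a RefSeq promoter window held each of them whole, and they let the base composition of single HuR sites be seen. SNORD121B, listed under UBAP2 (GRCh38.p14, chr9:33934315-33934344, minus strand), is a member. SNORD58B, a C/D snoRNA (chr18:49491676-49491705, minus strand), and SNORA7A, an H/ACA snoRNA (chr3:12840401-12840430, minus strand), are listed as 5′ UTR of RPL17-C18orf32 and RPL32 and are therefore no members. The sequences are those of RefSeq, 5′ to 3′, as DNA, with the 20-nucleotide peak in capitals.
SNORD121B: acataTCTGAGTTGTATGTGTGGACagcac
SNORD58B: cacctTTGGATTAATAATGAAAACAactac
SNORA7A: ggagaGTGCCTAGTATTCTGCCAGCttcgg
A or T made up 11 of the 20 peak bases in SNORD121B, 16 of 20 in SNORD58B and 9 of 20 in SNORA7A. Their means in nuclear and cytoplasmic mock libraries were 13.2 and 0.691 CPM for SNORD121B, 39.1 and 0.706 CPM for SNORD58B, and 0.644 and 0 CPM for SNORA7A, whose peak held too few tags to be tested.

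Tags were recovered as whole numbers from the deposited values and are given as CPM, the usual scale relative to the tags of the whole library. Library totals ran from 686263 to 1759090 tags in the 12 fraction libraries, from 17051 to 2622677 in the inputs and from 4662 to 944225 in the enriched libraries, and the members held between 108 and 2343 tags in a fraction library. Of 8 hepatocyte genes, ALB, AFP, APOB, APOH, SERPINA1 and FGB had peaks, while APOA1 and TTR had none. Peaks of the nuclear RNA NEAT1 summed to 413 CPM in nuclear and 125 CPM in cytoplasmic mock libraries. Those of MALAT1, also a nuclear RNA, summed to 2561 and 2394 CPM, and the part of such tags in the comparison of fractions was not tested.

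SNORD peaks were higher in nuclear than in cytoplasmic HuR libraries of mock-treated cells. Summed over the 115 peaks, the 3 nuclear mock libraries had 1941, 2079 and 2070 CPM, and the 3 cytoplasmic mock libraries had 170, 266 and 297 CPM. The nuclear mean of 2030 ± 77.4 (SD, n = 3) was 8.30 times the cytoplasmic mean of 244 ± 66.2 (SD, n = 3), and the groups did not overlap. SNORA peaks held few tags: 36.4, 40.9 and 38.6 CPM in nuclear and 8.51, 13.2 and 14.8 CPM in cytoplasmic mock libraries, a ratio of 3.18 resting on 110 and 35 tags. In such bulk libraries, more RNA of a snoRNA, more HuR bound to it and more cells holding it cannot be told apart. The 3 SCARNA peaks had 8 tags in the nuclear mock libraries and 0 of 2870293 tags in the cytoplasmic ones.

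Peak by peak, 115 of the 168 members had tags in at least 3 of the 6 mock fraction libraries and were tested with limma over all peaks together. Of these, 73 were called higher in the nuclear fraction at an adjusted p below 0.05 and 0 lower, where 0.53% of all 157168 tested peaks were called higher and 2.29% lower. All 73 were SNORD peaks, of 99 tested. None of the 13 tested SNORA peaks was called by limma, though 2 had an unadjusted p below 0.05, and edgeR called 0. Of the 115 tested members 96 had an unadjusted p below 0.05 by limma, against 30826 of all 157168 tested peaks. The median log2 difference was 1.90 over the tested members and 0.15 over all tested peaks. A peak could pass the filter on its nuclear libraries alone, so these counts and medians do not describe all members. The call count depended on single libraries, at 0 without cytoplasmic replicate 2. It was 13, 18, 22 and 26 without cytoplasmic replicate 3, nuclear replicate 2, cytoplasmic replicate 1 and nuclear replicate 3. In the fits leaving out 1 library, whose filters differ, 93 to 108 members had an unadjusted p below 0.05. In the same fits 30668 to 44837 of all 208802 to 224422 tested peaks did. edgeR on the recovered tags called 70 members higher, 69 of them among the 73, against 0.457% of all peaks. TMM scaling moved the edgeR median of all peaks from 0.50 to 0.36, and edgeR then called 41.

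The member with the highest mean level in both mock fractions was SNORD101, hosted by RPS12 (chr6:132815352-132815372), a ribosomal protein gene of the small subunit. It had 173, 208 and 186 CPM in nuclear mock and 18.1, 27.5 and 29.5 CPM in cytoplasmic mock libraries, a log2 difference of 2.83 ± 0.21 (SE; adjusted p = 0.000266, limma). No cytoplasmic library approached the nuclear ones.

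SNORD34, hosted by RPL13A (chr19:49490938-49490958), gave the largest difference among the called peaks. Its values were 61.2, 58.2 and 85.9 CPM in nuclear and 1.06, 6.11 and 3.16 CPM in cytoplasmic mock libraries, a log2 difference of 3.70 ± 0.36 (SE; adjusted p = 0.000871, limma). SNORD42A in RPL23A followed with mean levels of 52.6 and 2.79 CPM and a log2 difference of 3.48. SNORD24 in RPL7A had 65.4 and 3.84 CPM and a log2 difference of 3.47. All 3 are hosted by genes for large-subunit ribosomal proteins, and of 40 member peaks in RPL and RPS genes 33 were tested and 26 called higher, 78.8% against 73.7% of all tested SNORD peaks.

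SNORD33 in RPL13A had 49 tags over the nuclear mock libraries and 0 over the cytoplasmic mock libraries, at least 16.6-fold higher than a floor of 3 tags over the cytoplasmic group. Log2 differences were computed on CPM plus a pseudocount of 2.28, which understates such a change.

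SNORD117 and SNORD84, both hosted by the RNA helicase gene DDX39B on chromosome 6, had 74.3, 69.1 and 80.1 CPM and 55.4, 61.8 and 69.5 CPM in nuclear mock libraries. In the cytoplasm they had 8.51, 22.4 and 27.4 CPM and 10.6, 17.3 and 29.5 CPM. Their log2 differences were 1.94 ± 0.35 (SE; adjusted p = 0.0182, limma) and 1.68 ± 0.32 (SE; adjusted p = 0.0230, limma). SNORD97 in EIF4G2 had a log2 difference of 1.43 ± 0.29 (SE; adjusted p = 0.0318, limma), with 56.5 and 20.2 CPM on average. SNORD104 on chromosome 17 had 64.8 and 6.30 CPM on average, a log2 difference of 3.14.

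Among the SNORA peaks, SNORA63 in the translation factor gene EIF4A2 had 4.37, 4.55 and 5.79 CPM in nuclear and 0, 1.02 and 3.16 CPM in cytoplasmic mock libraries. These groups did not overlap, but with 14 against 4 tags the log2 difference of 1.05 ± 0.36 (SE) had an adjusted p of 0.112 by limma. SNORA62 and SNORA6, both in RPSA, and SNORA2C in KANSL2 had overlapping groups, with nuclear means of 3.51, 3.05 and 2.39 CPM and cytoplasmic means of 1.39, 1.06 and 1.06 CPM. The main SCARNA9L peak had 4 tags in nuclear and 0 in cytoplasmic mock libraries, and SCARNA17 had 2 and 0.

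The host genes had 1962 other peaks, of which 1047 were tested. Of these, 14 were called higher in the nuclear fraction and 37 lower, with a median log2 difference of 0.15. In their 3′ UTRs 36 of 188 tested peaks were lower in the nuclear fraction and 2 higher, with a median of -0.67. Among peaks of genes for the snoRNA proteins and their assembly factors, such as FBL, NOP58 and DKC1, 99 were tested, 1 was higher and 2 lower. Other small RNAs, such as the spliceosomal U RNAs, 7SK and vault RNAs, had 7 higher and 2 lower of 99 tested, and the lncRNA genes that host snoRNAs had 27 higher and 6 lower of 93.

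The 10 snoRNA sites of GAS5 and the 8 of SNHG1, annotated as lncRNA and so outside the membership rule, gave 10 and 7 nuclear-higher calls with median log2 differences of 3.04 and 3.73. The few other peaks of these genes, 2 in GAS5 and 1 in SNHG1, gave 0 calls by limma, with 1 and 1 at an unadjusted p below 0.05. SNORD79 of GAS5 had a mean of 115 CPM in nuclear and 1.05 CPM in cytoplasmic mock libraries. Outside the rule lay 142 peaks on RefSeq snoRNA genes. Of these, 110 were on genes with a SNORD, SNORA or SCARNA name, and 45 of the 79 tested were higher in the nuclear fraction and 7 lower. Among the 110, 36 were SNORD sites annotated as lncRNA, with 30 higher and 1 lower of 34 tested.

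**Figure D2:**
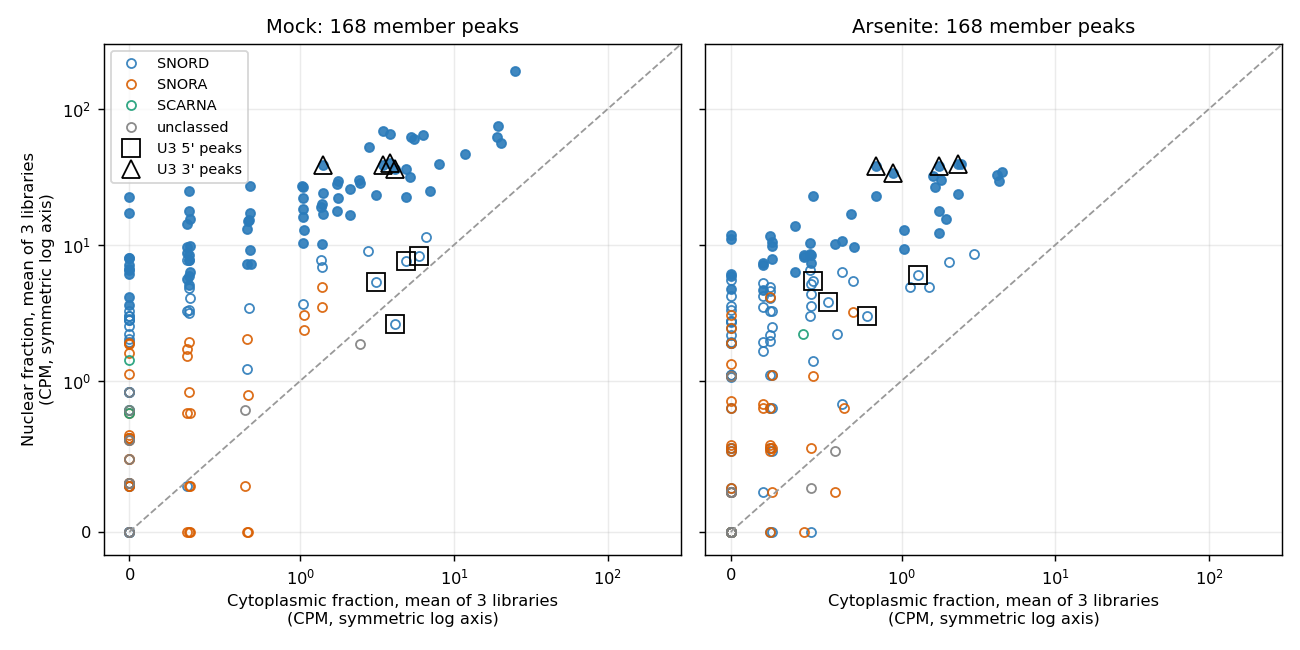
Mean CPM of each of the 168 member peaks in the cytoplasmic (horizontal) and nuclear (vertical) fraction, mock on the left and arsenite on the right, both axes symmetric log scales linear below 1 CPM, n = 3 libraries a group; filled points were called higher in the nuclear fraction (73 in mock, 43 in arsenite), and the dashed line marks equal levels. The 3′ peaks of U3 (triangles) lie among the filled SNORD points and the 5′ peaks (squares) near the line in mock.

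U3 was measured at 2 sites per copy. Summed over the 4 copies, the 3′ peaks had 165, 149 and 148 CPM in nuclear mock and 17.02, 14.26 and 7.38 CPM in cytoplasmic mock libraries, and all 4 were called, with log2 differences of 2.67 to 3.46 and adjusted p from 0.000571 to 0.00623 by limma. The 5′ peaks had nuclear and cytoplasmic means of 23.8 ± 2.32 and 18.0 ± 7.34 CPM (SD, n = 3 each), their groups overlapped, and none of the 4 was called by limma, with log2 differences of -0.51 to 0.49. The 3′ share of all U3 tags was 88.3%, 85.0% and 86.4% in the nuclear mock libraries and 55.2%, 35.0% and 35.0% in the cytoplasmic ones. The difference of 44.8 percentage points had an exact two-sided permutation p of 0.1, the smallest that 3 against 3 libraries can give, and 0.2 after Benjamini-Hochberg adjustment over 4 such comparisons. Arsenite-treated nuclei gave a 3′ share of 88.5% ± 4.21 (SD, n = 3), and arsenite-treated cytoplasm 67.1% ± 10.7 (SD, n = 3). These means lay 21.4 percentage points apart, again with an exact permutation p of 0.1 and 0.2 after adjustment. The 5′ peaks then had means of 18.2 and 3.13 CPM, a ratio of 5.83 with no overlap on 67 and 15 tags, and none of the 4 was called by limma (adjusted p from 0.0816 to 0.226). In mock the cytoplasmic shares rest on 20 to 40 tags a library, the Wilson 95% interval of the third one running from 18.1% to 56.7%. The table also listed 2 peaks named only U3 and 2 named U8 elsewhere, with no copy given.

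SNORD13 (U13), which pairs with the precursor of the small-subunit ribosomal RNA, had 21.9, 19.1 and 26.1 CPM in nuclear and 1.06, 5.09 and 8.44 CPM in cytoplasmic mock libraries, a log2 difference of 1.93 ± 0.41 (SE; adjusted p = 0.0388, limma). The U14 copies SNORD14A and SNORD14B in RPS13 and SNORD14E in HSPA8 had 62, 23 and 65 tags over the nuclear mock libraries against 3, 1 and 4 over the cytoplasmic ones. Their log2 differences were 2.91, 1.90 and 2.90, and all 3 were called by limma. The U17 genes SNORA73A and SNORA73B, outside the rule because the table lists them as lncRNA of RCC1, had nuclear means of 24.8 and 14.5 CPM against 7.26 and 1.75 CPM. U8 (SNORD118, listed as the 3′ UTR of TMEM107) and U22 (SNORD22 of SNHG1), also outside the rule, had nuclear means of 13.6 and 5.21 CPM against 1.39 and 0.351 CPM.

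After arsenite SNORD peaks were again higher in the nuclear fraction. The nuclear arsenite libraries had 1027, 752 and 936 CPM and the cytoplasmic arsenite libraries 73.6, 56.3 and 70.9 CPM, a ratio of means of 13.5. Of 114 members tested, 43 were called higher in the nuclear fraction and 0 lower, against 0.11% and 0.147% of all 236332 tested peaks. All 43 were SNORD peaks, and all 43 were also among the 73 called in mock, which is 58.9% of that list. Without nuclear arsenite replicate 3 or cytoplasmic arsenite replicate 2 no member was called by limma, and without any other single library 7 to 9 were. In these fits 83 to 96 members had an unadjusted p below 0.05, as had 27279 to 35976 of all 280933 to 292253 tested peaks. With all libraries edgeR called 57, against 0.256% of all peaks called higher, and edgeR with TMM scaling 28. The U3 3′ peaks gave the 4 largest differences, from SNORD3C with means of 37.9 and 0.852 CPM (log2 difference 3.66 ± 0.28, SE; adjusted p = 2.34e-05, limma) through SNORD3B-2 at 3.55 and SNORD3A at 3.30 to SNORD3B-1 at 3.25.

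Within the nuclear fraction, SNORD peaks were lower after arsenite than in mock, while the groups overlapped for the U3 3′ peaks. The summed SNORD mean went from 2030 to 905 ± 140 CPM (SD, n = 3), a ratio of 0.446, with no overlap between the groups, and without the U3 copies from 1853 to 738 CPM. The summed peaks of 4 of the 6 hepatocyte genes were also lower in nuclear arsenite than in nuclear mock libraries, with AFP at 742 and 414 CPM in mock and arsenite, ALB at 228 and 75.3 CPM, FGB at 45.9 and 22.6 CPM and SERPINA1 at 7.63 and 4.07 CPM. APOB had 93.5 and 121 CPM and APOH 1.78 and 3.25 CPM. The part of such shifts in the SNORD difference was not tested. Of 132 members tested, 13 were lower after arsenite and 0 higher, where 0.034% of all 200232 tested peaks were called lower and 0.152% higher. All 13 were SNORD peaks, 100 of the 106 tested SNORD peaks had a negative difference, and the median was -0.75 over the tested members and 0.01 over all peaks. TMM scaling moved the edgeR median of all peaks from 0.04 to 0.27. Under it edgeR called 0 members, with 50 at an unadjusted p below 0.05, where 19281 of all 200232 tested peaks lay below it. Without TMM scaling edgeR called 28. No member was called by limma without nuclear mock replicate 1 or nuclear arsenite replicate 1 or 2, and 1 was without nuclear mock replicate 2 or 3. In the fits leaving out 1 library 57 to 71 members had an unadjusted p below 0.05, as had 21986 to 31566 of all 252510 to 268882 tested peaks.

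SNORD101 gave the largest difference among the called peaks. It had 173, 208 and 186 CPM in nuclear mock and 40.0, 40.8 and 38.1 CPM in nuclear arsenite libraries, a log2 difference of -2.19 ± 0.14 (SE; adjusted p = 0.00013, limma). SNORD11B in NOP58, itself a gene for a core C/D protein, went from a mean of 15.9 to 3.29 CPM (log2 difference -1.71 ± 0.28, SE; adjusted p = 0.0351, limma). SNORD36A in RPL7A went from 17.8 to 4.38 CPM (log2 difference -1.60 ± 0.27, SE; adjusted p = 0.0433, limma). None of the 3 had overlapping groups. The other 10 called peaks were SNORD117, SNORD42A, SNORD34, SNORD2, SNORD52, SNORD54, SNORD24, SNORD58A, SNORD35B and SNORD36C, with differences of -1.08 to -1.60.

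The U3 3′ peaks summed to 165, 149 and 148 CPM in nuclear mock and 178, 107 and 161 CPM in nuclear arsenite libraries. The groups overlapped, and the 4 log2 differences lay between -0.20 and 0.06 with standard errors of 0.23 to 0.25. Over 14 alternative settings they ran from -0.43 to 0.33, with both signs for each of the 4 peaks. The U3 5′ peaks summed to means of 23.8 CPM in nuclear mock and 18.2 CPM in nuclear arsenite libraries, on 68 and 67 tags. That is a ratio of 0.767 with groups that did not overlap. None of the 4 was called by limma (adjusted p from 0.741 to 0.756), with log2 differences of -0.50 to 0.51. SNORD13 had means of 22.3 and 8.51 CPM, with groups that did not overlap and an adjusted p of 0.123 by limma. Of 22 tested SNORA peaks 9 had a positive difference. Their sum was 36.4, 40.9 and 38.6 CPM in nuclear mock and 35.2, 24.0 and 32.1 CPM in nuclear arsenite libraries, a ratio of means of 0.787 with groups that did not overlap, resting on 110 and 111 tags. The host genes' other peaks had 5 higher and 2 lower of 1265 tested in the nuclear fraction after arsenite. The 10 GAS5 sites had 3 lower calls and no higher one, with all 10 differences negative and a median of -1.05. Of the 2 GAS5 peaks off its snoRNAs 1 was called lower, and their median was -1.14.

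**Figure D3:**
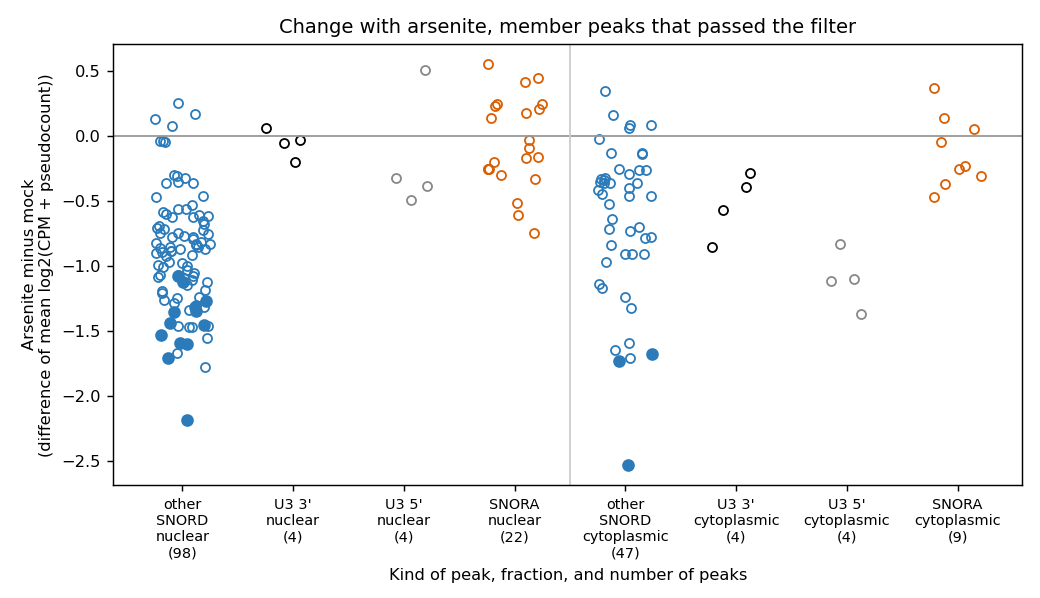
Arsenite minus mock difference of mean log2(CPM + pseudocount) for member peaks that passed the filter, nuclear fraction left and cytoplasmic fraction right of the grey line, each point 1 peak and filled points called lower (13 nuclear, 3 cytoplasmic). The other SNORD peaks of the nuclear fraction lie mostly below 0, the 4 U3 3′ peaks between -0.20 and 0.06, and the 22 SNORA peaks on both sides.

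In the cytoplasmic fraction the SNORD sum was also lower after arsenite, going from a mean of 244 to 67.0 ± 9.34 CPM (SD, n = 3), a ratio of 0.274, with no overlap. The SNORA sum went from 12.2 to 5.86 CPM, a ratio of 0.482, also with no overlap, on 35 and 26 tags. Here all 6 hepatocyte genes were lower, from AFP at 1257 and 553 CPM, ALB at 483 and 149 CPM, APOB at 231 and 188 CPM and FGB at 155 and 40.6 CPM to SERPINA1 at 23.3 and 11.6 CPM and APOH at 2.80 and 1.76 CPM. Only 65 members could be tested, of which 3 were called lower and 0 higher, where 0.52% of all 193897 tested peaks were called lower and 0.24% higher. SNORD101 had 18.1, 27.5 and 29.5 CPM in mock and 3.61, 2.27 and 1.39 CPM in arsenite (log2 difference -2.54 ± 0.30, SE; adjusted p = 0.00673, limma). SNORD97 in EIF4G2 went from 12.8, 20.4 and 27.4 to 2.89, 4.55 and 5.56 CPM (log2 difference -1.73 ± 0.32, SE; adjusted p = 0.0426, limma). SNORD59A in the ATP synthase gene ATP5F1B went from 5.32, 7.13 and 8.44 to 0, 1.14 and 0.696 CPM (log2 difference -1.68 ± 0.29, SE; adjusted p = 0.0319, limma). The number called ranged from 0 to 5 when 1 library was left out, at 0 without cytoplasmic mock replicate 2 or 3, 1 without cytoplasmic mock replicate 1 and 5 without cytoplasmic arsenite replicate 1, and edgeR called 7.

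The cytoplasmic U3 5′ peaks had a mean of 18.0 CPM in mock and 3.13 ± 1.87 CPM (SD, n = 3) in arsenite, while the 3′ peaks had 12.9 and 5.88 CPM. Both sums had groups that did not overlap, and none of the 8 peaks was called by limma, with adjusted p values of 0.0684 to 0.760. Whether a peak's response to arsenite differed between the fractions was tested as an interaction. No member of 143 tested was called by limma, 23 had an unadjusted p below 0.05, and edgeR also called 0, where 0.318% of all 334689 tested peaks were called in the positive and 0.0344% in the negative direction. Of all tested peaks 31036 had an unadjusted p below 0.05 by limma. The smallest p of a member, 0.00231 (adjusted p = 0.240, limma), belonged to the 5′ peak of SNORD3B-2, named after its value was seen. The interaction was negative, a smaller nuclear excess after arsenite, for 103 of the 143 members and 192018 of all tested peaks (medians -0.39 and -0.08). For SNORD it was negative in 85 of 107. The nuclear to cytoplasmic ratio of the SNORD sums, which contain no pseudocount, was instead 8.30 in mock and 13.5 after arsenite. The cause of these opposite directions was not tested.

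**Figure D4:**
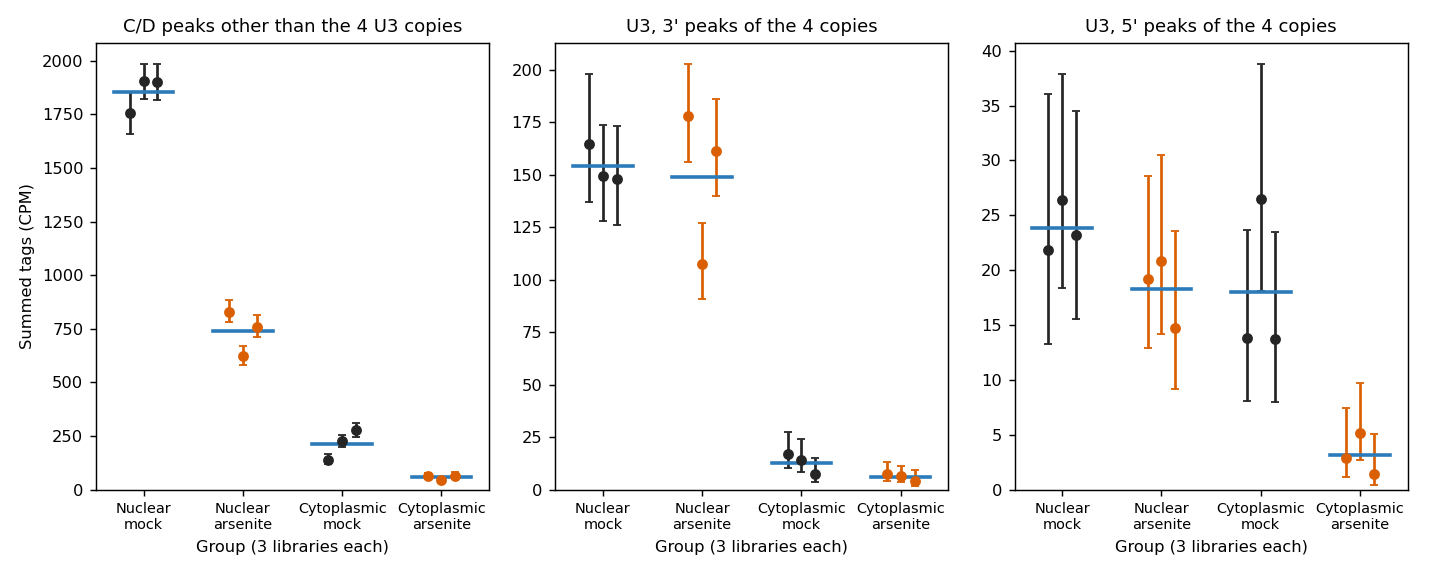
Summed CPM in each of the 12 fraction libraries (points, with Wilson 95% intervals of the tag share; blue bars are means of 3) for C/D peaks other than the 4 U3 copies (left), U3 3′ peaks (middle) and U3 5′ peaks (right), mock in black and arsenite in orange. In nuclear mock and arsenite libraries the other C/D peaks average 1853 and 738 CPM, and the U3 3′ peaks 154 and 149 CPM with overlapping groups. A difference between these kinds of peak was not tested.

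In the APEX-NLS and APEX-NES lines the level of SNORD peaks went with the library set, the prefix that the sample descriptions give. The inputs of APEX-NLS cells had 767 CPM in set JL0388 and 6654 CPM in set JL1024 when mock treated, and 583 and 2877 CPM after arsenite. APEX-NES inputs had 857 and 2431 CPM in mock and 757 and 2838 CPM after arsenite. Both lines and treatments were thus lower in JL0388. APEX-G3BP1 inputs kept that order of JL0388 and JL1024 in mock but not after arsenite. In mock they had 658 and 930 CPM in set JL0361, 934 CPM in JL0388 and 2714 CPM in JL1024. After arsenite they had 176, 216 and 207 CPM in JL0361, 578 CPM in JL0388 and 287 CPM in JL1024. In the same order, these values rest on 13, 196, 715 and 61 SNORD tags in mock. After arsenite they rest on 3, 239, 250, 479 and 52.

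The sets also ranked single snoRNAs differently. SNORD101 had 9.59 to 16.1 CPM in the 4 NLS and NES inputs of JL0388 and 157 to 474 CPM in the 4 of JL1024. SNORD117, in contrast, had 38.3 to 56.3 CPM in the first and 8.16 to 67.1 CPM in the second. The share of SNORD tags on the 4 U3 copies overlapped between the inputs of these sets, at 24.5% to 34.6% in the 6 inputs of JL0388 and 13.5% to 34.2% in the 6 of JL1024. In enriched libraries with at least 50 SNORD tags it was 22.6% to 25.5% in 3 of JL0388 and 23.7% to 63.0% in 10 of JL1024. It was 7.09% to 20.2% in the 12 fraction libraries, which are another set.

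The APEX-NLS and APEX-NES lines ask the same question by proximity. In enriched mock libraries, the SNORD sum was 305 and 554 CPM (JL0388) and 3603 and 3120 CPM (JL1024) for APEX-NLS, and 238 and 417 CPM and 3402 and 1289 CPM for APEX-NES. After arsenite the values were 347 and 419, then 1794 and 1495 CPM for APEX-NLS, and 444 and 551, then 2601 and 1030 CPM for APEX-NES. The lines thus overlapped within JL1024 in both treatments, and in JL0388 in mock. With the library set as a covariate, limma called 0 of 57 tested members between NLS and NES in mock, with 7 at an unadjusted p below 0.05, and 0 of 66 after arsenite, with 2; edgeR called 0 in both. In these fits 0% of all 928 and 1676 tested peaks were called in either direction. Of these peaks 126 and 174 had an unadjusted p below 0.05 by limma. Within JL0388 alone, limma called 10 of 25 tested members higher near NLS in mock, where 55.6% of all 4939 tested peaks were called higher. Within JL1024 alone it called 9 of 101, where 40.1% of all 3737 tested peaks were. Of these calls 8 of 10 and 8 of 9 rested on 2 or 3 tags in the NLS libraries, and every one had 0 tags in the NES libraries, so no difference of the snoRNAs was read from them. Each of these fits had 2 libraries against 2, and the NLS pair of JL0388 did not differ beyond sampling noise and counts as 1 sample elsewhere. After arsenite 0 members and 0% of all peaks were called higher within either set.

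SNORD34 had the second largest mock difference of these, with 9.85, 27.3, 37.8 and 35.6 CPM near NLS and 0, 0, 0 and 28.4 CPM near NES (log2 difference 2.64 ± 0.85, SE; adjusted p = 0.134, limma). It was named after its value was seen. SNORD117 had 30.3 and 4.56 CPM on average and a log2 difference of 2.55 (adjusted p = 0.0984, limma). The 4 U3 3′ peaks gave differences of -0.02 to 1.04 in mock and -1.41 to -0.33 after arsenite, none called by limma.

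APEX-G3BP1 is a fusion to a stress granule protein. The SNORD sum of its enriched libraries ran from 0 to 948 CPM in mock (median 313 CPM, 6 libraries) and from 0 to 1135 CPM after arsenite (median 169 CPM, 7 libraries), with 0 to 206 SNORD tags a library. The library with 0 SNORD tags among 4662 in mock allows a level of up to 644 CPM, so such libraries do not show absence. SNORA sums held at most 3 tags in any G3BP1 enriched library, and SCARNA peaks had none.

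**Figure D5:**
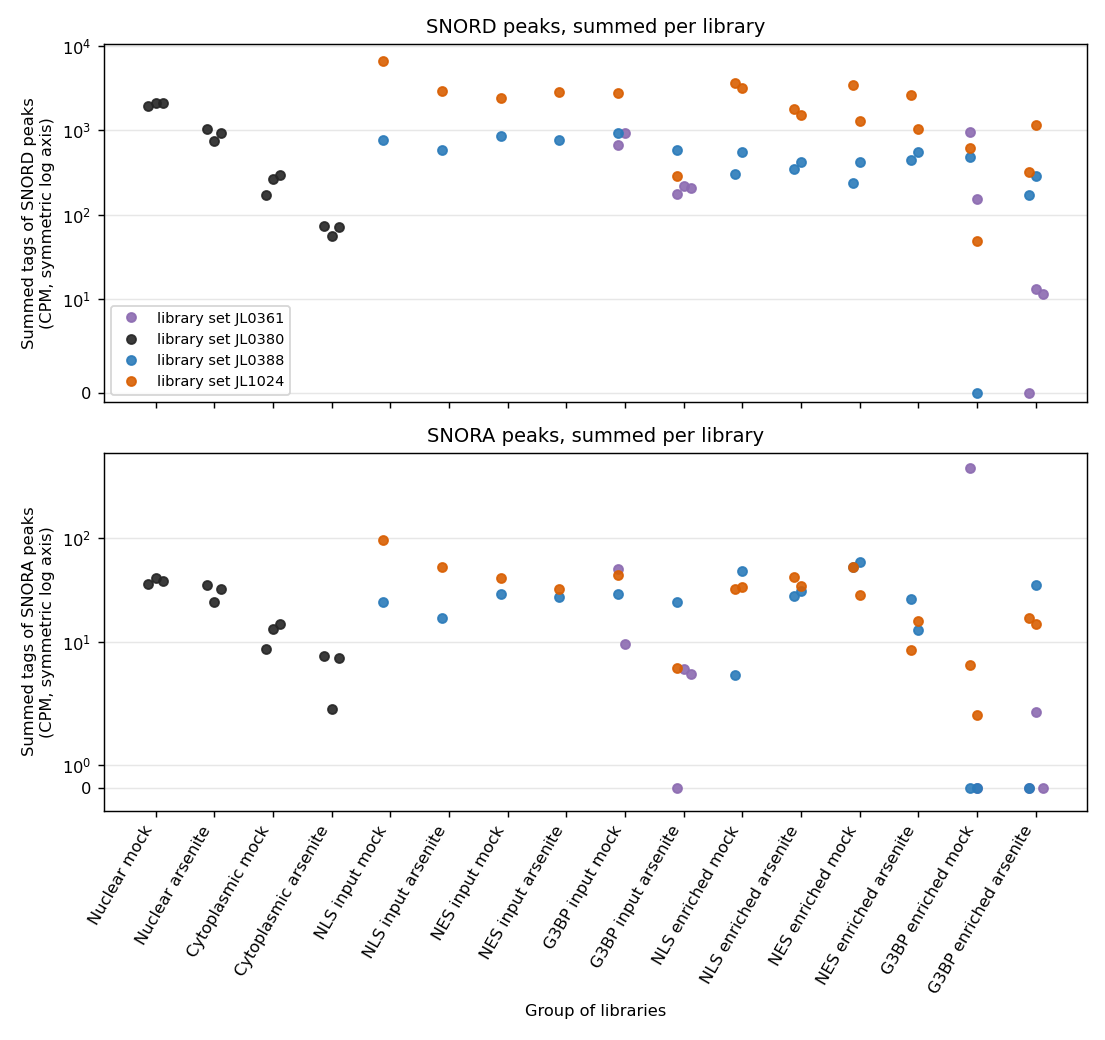
Summed CPM of the 115 SNORD peaks (top) and the 37 SNORA peaks (bottom) in each of the 58 libraries, grouped along the horizontal axis and coloured by library set; the vertical axis is a symmetric log scale that passes through 0. Nuclear libraries lie above cytoplasmic ones in both treatments, and JL1024 libraries lie above JL0388 in every NLS and NES group for SNORD.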

How the data were processed

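HuR CLIP-seq coverage of 58 libraries was deposited as 1 table of signal per peak. The values were tested to be whole tags scaled to each library's total; all values came out whole within 0.02 tags. Bowtie2, SAMtools, bedtools and HOMER are named per the submitters' processing notes, with GRCh38.p14; their versions and roles are not given in the sources used here. The table had 395471 lines, of which 8257 repeats were dropped. Whether its starts count from 0 is not stated.

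Values were tested as log2(CPM + 2.28), the pseudocount being the median over libraries of the smallest value above 0, with limma 3.58.1 (R 4.3.3) on peaks whose number of libraries with tags reached the size of the smaller group, and Benjamini-Hochberg adjustment over all tested peaks at 0.05. edgeR 4.0.16 on the recovered counts (deposited as scaled signal), other filters and pseudocounts, other scalings, a replicate block and leaving out each library were alternatives. Tests were first run on simulated data. Pairs of libraries that did not differ beyond sampling noise in a chi-square test over 500 peaks were counted as 1 sample in means and SDs; there were 5 of 32, all in enriched groups of set JL0388. The fit of NLS against NES kept them apart, with counting them once as an alternative, and had the library set as a covariate. Intervals, floors of 3 tags and at-least folds cover counting error only.

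Named sites were the most abundant names per class, the largest called differences per comparison, every called site where 5 or fewer were called, and the snoRNAs that process precursor ribosomal RNA. The members, lists and tests were chosen with earlier results of these data known.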

Additional observations from a re-analysis of the deposited data

Results flagged for a closer look

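Within groups of 4 to 7 libraries, 7 of 32 sums had 1 library far from the others by Dixon's criterion, which chance alone meets in about 1 group in 20. That rate takes no account of the library sets, which differ in level and are mixed in these groups. SNORD peaks summed to 2714 CPM in APEX-G3BP1 mock input replicate 4, the JL1024 library of its group, the next library having 934 CPM. They summed to 578 CPM in APEX-G3BP1 arsenite input replicate 4, the JL0388 library of its group, next to 287 CPM, and to 1135 CPM in enriched arsenite replicate 7, next to 316 CPM. Without the U3 copies that enriched library had 866 CPM, next to 178 CPM, and APEX-NES enriched arsenite replicate 3 had 963 CPM, next to 393 CPM. SNORA peaks summed to 24.1 CPM in APEX-G3BP1 arsenite input replicate 4, next to 5.53 CPM. They summed to 474 CPM in APEX-G3BP1 enriched mock replicate 1, next to 5.98 CPM, a value that rests on 3 tags.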

How the results depend on the processing

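The log2 ratios of the summed SNORD and SNORA levels kept their sign under every alternative run. Leaving out 1 library, the number of members called ranged from 0 to 77 for nuclear against cytoplasmic in mock (0% to 6.06% of all peaks called higher, the 77 at 6.06%), 0 to 9 in arsenite (0% to 0.00763%), 0 to 11 for arsenite in the nuclear fraction (0% to 0.0657% called lower), 0 to 5 in the cytoplasmic fraction (0% to 0.608% called lower), 0 to 0 for the interaction, and 0 to 2 and 0 to 0 for NLS against NES in mock and arsenite; the 2 calls came without NLS mock replicate 3, where 14.5% of all peaks were called higher. With TMM scaling edgeR called 41, 28 and 0 in the first 3 comparisons (0.0789%, 0.0427% and 0.0015% of all peaks). For arsenite in the nuclear fraction, limma called 2 and 4 with the pseudocount 4 times smaller and larger, 23 without a filter and 36 with a stricter one, and edgeR 28, where 0.0105%, 0.0265%, 0.0547%, 0.34% and 0.0854% of all peaks were lower. In the cytoplasmic fraction it called 7 with the smaller pseudocount, 13 with the stricter filter and edgeR 7, where 0.825%, 2.67% and 1.01% were lower. The interaction had 3 negative calls with the larger pseudocount and 3 when scaled to tags in peaks, where 0.0353% and 0.0427% were negative. NLS against NES had 1 call with the smaller pseudocount and 1 when scaled to tags in peaks, in mock (7.33% and 6.47% of all peaks called higher) and in arsenite alike (2.98% and 2.45%), and 10 within JL0388 and 9 within JL1024 in mock (55.6% and 40.1% of all peaks), mostly on 2 or 3 tags. The cause of these changes was not tested. Replicate numbers did not pair the samples (mean correlation of same-numbered libraries 0.00169 in mock); with the number as a block the counts were 71, 37, 14, 6, 0, 0 and 0 (0.406%, 0.0626%, 0.0415% and 0.783% of all peaks in the first 4). Low tag counts limit the SNORA, SCARNA and APEX-G3BP1 values.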

Other observations

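In input libraries, the box C/D snoRNAs that held the tags differed between library sets in the place of their peak. Nearly every snoRNA has a single peak here, so the split below is between different snoRNAs and not between parts of one. Among SNORD peaks other than those of the 4 named U3 copies, those starting before the median offset of 42 nucleotides from the 5′ end held 29.6% to 34.3% of the tags in the 6 inputs of JL0388 and 44.0% to 57.8% in the 6 of JL1024. The highest of these rests on 26 tags in such peaks and 19 in the others. In 3 inputs of JL0361 with at least 50 tags in all these peaks it was 51.1% to 53.4%. Over inputs and enriched libraries together, with at least 50 such tags each, the ranges overlapped, at 21.4% to 41.0% in JL0388 and 37.2% to 50% in JL1024. The range was 45.9% to 50.1% in the 6 nuclear libraries, 33.6% to 36.7% in the cytoplasmic mock and 42.0% to 45.6% in the cytoplasmic arsenite libraries. Across 85 peaks, the offset correlated with the log ratio of JL0388 to JL1024 inputs at a Spearman rho of 0.42 (0.35 for the length of the snoRNA), and with that of JL1024 inputs to nuclear mock libraries at -0.12. These peaks share libraries and are no independent replicates.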
